A study of Macaca fascicularis with 28 samples.

Results

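Phospholipase C (PLC) isoforms were followed across taste buds (TB) and non-gustatory lingual epithelium (LE) of the cynomolgus macaque, Macaca fascicularis. A probe set on the Affymetrix Rhesus macaque array was included when its gene symbol was PLCB1, PLCB2, PLCB3, PLCB4, PLCG1, PLCG2, PLCD1, PLCD3, PLCD4 or PLCE1. The symbol given in the study's table of TB-associated genes was used where that table listed the probe set, and the array annotation was used otherwise. This gave 10 genes among 14873 named genes, represented by 18 of 52024 probe sets, and every probe set was read in all 28 samples.

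Laser capture microdissection was used to collect about 5000 cells a sample from tongues taken after death, and no sample was treated. The first set of arrays held 20 samples from 6 animals: circumvallate (CV) TB of the posterior tongue (n = 4), fungiform (FG) TB of the anterior tongue (n = 6), LE adjacent to CV papillae (n = 4) and LE adjacent to FG papillae (n = 6). Animals 1, 2, 5 and 6 were female and animals 3 and 4 were male, at 2.6 to 4.5 years of age, and CV tissue came from animals 1, 3, 4 and 5. The second set held the top (n = 4) and bottom (n = 4) fractions of CV TB from animals 7 to 10, 1 male and 3 females of 3 years. Each captured sample pools many buds or epithelial areas of 1 animal, and a bud mixes several cell types, so fewer cells of a type and less RNA per cell cannot be told apart.

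PLC enzymes cleave the membrane lipid phosphatidylinositol 4,5-bisphosphate (PIP2) into inositol trisphosphate (IP3), which releases stored calcium, and diacylglycerol (DAG), which recruits protein kinase C. The beta isoforms are switched on by G proteins, the gamma isoforms by tyrosine kinases, the delta isoforms by calcium, and PLC epsilon by small GTPases. PLCB2 is known from rodents as the isoform that couples sweet, bitter and umami receptors of type II taste cells to IP3 receptors and the channel TRPM5.

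TB carried type II taste cell markers and LE carried keratinocyte markers, but the 3 type I taste cell markers were uneven. Summed type I intensity was 514.5 to 1345 in CV TB and 63.2 to 149.5 in adjacent LE. In FG TB it was 51.22 to 199.8, against 95.24 to 272.1 in adjacent LE. The summed intensity of 6 type II taste cell markers was 7045 to 10919 in CV TB, 9068 to 13069 in FG TB and 103.3 to 201.3 in LE. GNAT3, the taste G protein alpha subunit, and TAS1R2 lay under 25 in every LE sample. TRPM5 (20.7 to 61.96), TAS1R1 (19.11 to 64.24), GNG13 (15.22 to 34.46) and GNB3 (12.92 to 27.86) reached 25 in some. Of the 6, limma called 4 higher in CV TB and 6 in FG TB, beside 17.3% and 21.1% of all probe sets tested. TAS1R2 was dim in CV TB too (11.92 to 29.77). The summed intensity of 7 tongue keratinocyte markers was 58313 to 74361 in LE and 184.9 to 16863 in whole and fractionated TB, highest in FG TB of animals 4 (16863) and 3 (8419). All values are normalized intensities with no absolute unit, so the levels of different probe sets are not set against each other. An intensity of 25 was taken as the lower limit of a readable signal, since the study set aside probe sets at or below that level. Of the 18 PLC probe sets, 15 passed the filter of at least 25 in at least 4 samples of the first set, and 3 were under 25 in all 28 samples.

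By their representative probe sets, PLCB1, PLCB2, PLCB4, PLCG2 and PLCD4 were higher in TB than in adjacent LE at both sites. PLCB3 and PLCD1 were lower, PLCG1 and PLCD3 did not pass the test, and PLCE1 gave no readable signal. The count was thus 5 higher and 2 lower of 9 tested genes in CV and again 5 higher and 2 lower in FG, each gene read by 1 representative probe set with a call where limma's adjusted p was 0.05 or less. Over all 26176 probe sets tested, 17.3% were called higher and 18% lower in CV TB against adjacent LE, and 21.1% higher and 20.2% lower in FG TB. The median log2 change of the 9 genes was 3.77 in CV and 3.80 in FG, beside -0.08 and 0.05 over all probe sets tested, but over all 15 tested PLC probe sets it was -0.16 and -0.10, close to that background. The medians of the tested probe sets themselves lay 0.22 higher on the log2 scale in CV TB and 0.44 higher in FG TB than in adjacent LE, and no called PLC gene turned its direction when arrays were centred on them. The 5 higher genes are those that the study's table lists, and that table was drawn from these samples for higher signal in TB, so their direction is not independent evidence. With the brightest probe set in place of the listed one, 3 genes were higher and 2 lower in CV TB, and 3 were higher and 4 lower in FG TB. PLCB4 and PLCG2 made the difference: by their brightest probe sets they were not called in CV TB and were lower in FG TB. The array annotation names the listed PLCB4 probe set PFKFB3.

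**Figure D1:**
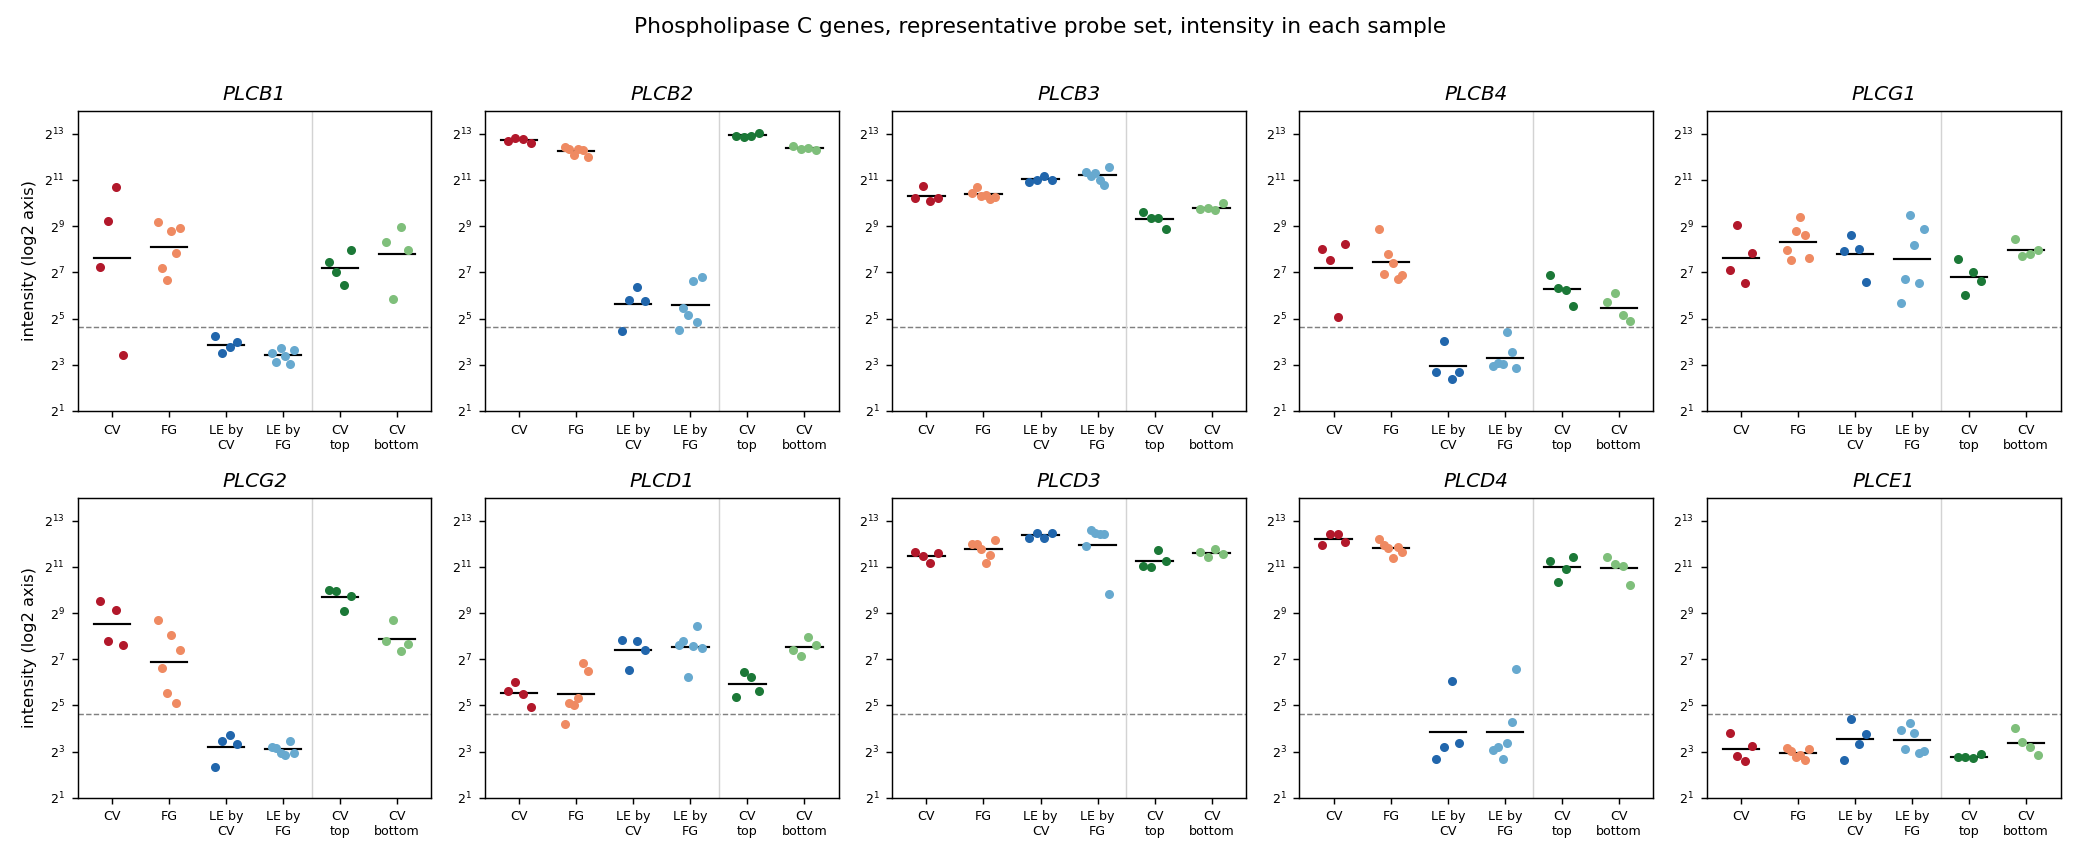
Intensity of the representative probe set of each PLC gene (log2 axis, normalized intensity) in the 6 groups, 1 point a sample, with a black line at the geometric mean and a dashed line at 25. PLCB2 and PLCD4 lie near the top of the axis in all TB groups. In LE, PLCB2 lies mostly above the dashed line (22.07 to 111.5) and PLCD4 mostly under it (6.362 to 94.93). PLCE1 lies under it everywhere, and the grey vertical line separates the array sets.

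PLCB2, the taste transduction isoform, was among the clearest cases. Its probe set read 6519, 7161, 7085 and 6132 in CV TB of animals 1, 3, 4 and 5, against 22.1, 56.4, 83.5 and 54.9 in the LE adjacent to CV papillae of the same animals. In FG TB it read 4135 at the lowest, 5109 at the median and 5428 at the highest, against 22.7, 40.1 and 111.5 in adjacent LE. Every TB sample stood far above every LE sample. PLCB2 was 133-fold higher in CV TB (log2 change 7.10 ± 0.42 SE, adjusted p = 3.56e-08) and 101-fold higher in FG TB (6.68 ± 0.34, adjusted p = 5.07e-09).

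PLCB1, a widely expressed isoform driven by G alpha q, was less even. Its probe set carries that name in the study's table only, with no symbol in the array annotation. It read 148.9, 601.5 and 1666 in CV TB of animals 1, 3 and 4 but 10.6 in CV TB of animal 5, and 11.2 to 18.7 in the adjacent LE. FG TB gave 100.7 to 582.7 (median 335.1) and adjacent LE gave 8.2 to 13.1. Signal was thus readable in 9 of 10 TB samples of the first set and in no LE sample. With values under 25 raised to 25, PLCB1 was at least 9.88-fold higher in CV TB (3.77 ± 0.97, adjusted p = 0.00828, higher in 3 of 4 animals) and at least 11-fold higher in FG TB (4.70 ± 0.79, adjusted p = 0.000445, 6 of 6 animals). The CV call was lost without animal 3 or animal 4, and adjusted p ran from 0.000782 to 0.347 over the alternatives.

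PLCB3, a beta isoform found in many tissues, was the reverse. Its brighter probe set read 1206, 1698, 1101 and 1186 in CV TB and 1899, 2070, 2315 and 2063 in adjacent LE, and 1166 to 1673 in FG TB (median 1296) and 1746 to 3014 in adjacent LE (median 2434). No TB sample reached the lowest LE sample of its site. PLCB3 was 1.63-fold lower in CV TB (-0.70 ± 0.24, adjusted p = 0.0377) and 1.76-fold lower in FG TB (-0.82 ± 0.20, adjusted p = 0.00542). The other PLCB3 probe set was lower as well, by -0.99 ± 0.27 in CV (adjusted p = 0.012) and -1.03 ± 0.22 in FG (adjusted p = 0.00257). The CV call of the brighter probe set was lost when any of animals 1, 3, 4 and 5 was left out. It was also lost with arrays centred on their medians and in the methods' t-test, with adjusted p from 0.0117 to 0.201 over the alternatives.

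PLCB4, known as the isoform of photoreceptor and cerebellar signaling in other tissues, had 2 probe sets with different patterns. The probe set that the study's table names PLCB4 is annotated as PFKFB3, a glycolytic regulator, on the array, and which transcript it reads was not tested. It gave 256.9, 183, 33.6 and 299.8 in CV TB and 5.2 to 16.4 in adjacent LE, and 104.2 to 475.8 in FG TB and 7.3 to 21.2 in adjacent LE. It was at least 5.9-fold higher in CV TB (4.26 ± 0.64, adjusted p = 0.000175) and at least 6.88-fold higher in FG TB (4.12 ± 0.52, adjusted p = 3.66e-05). Both calls were lost in the methods' t-test (adjusted p = 0.17 and 0.0833). The probe set annotated as PLCB4 on the array was bright in all tissues, at 2028 to 2430 in CV TB, 2264 to 2900 in adjacent LE, 1355 to 2374 in FG TB and 2446 to 4621 in adjacent LE. Its log2 change was -0.16 ± 0.25 in CV (adjusted p = 0.662) and it was 1.55-fold lower in FG (-0.63 ± 0.21, adjusted p = 0.0265). That FG call was lost under 7 alternatives, with adjusted p from 0.00315 to 0.101.

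PLCG2, a gamma isoform best known from B cells, mast cells and platelets, was read by 3 probe sets. The probe set listed by the study, unnamed on the array, gave 741.4, 224.4, 562.9 and 196.9 in CV TB against 5 to 13 in adjacent LE. It gave 34.5 to 410.2 in FG TB (median 132.5) against 7.3 to 11.1 in adjacent LE. TB and LE did not overlap at either site. PLCG2 by this probe set was at least 14.7-fold higher in CV TB (5.33 ± 0.62, adjusted p = 2.04e-05) and at least 4.77-fold higher in FG TB (3.80 ± 0.51, adjusted p = 5.98e-05).

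Of the 2 probe sets that the array annotation names PLCG2, MmuSTS.2246.1.S1_at was also higher in TB, and it was not chosen by the study's table. It gave 623.6 to 1253 in CV TB and 26.5 to 103.8 in adjacent LE, a 15-fold difference (3.90 ± 0.72, adjusted p = 0.000892). In FG TB it ran from 183.4 to 1147 and in adjacent LE from 13.6 to 229.8, so the groups overlapped, yet FG TB was above its own LE in 6 of 6 animals (2.72 ± 0.59, adjusted p = 0.00259, 5.93-fold). Both calls of this probe set were lost in the methods' t-test (adjusted p = 0.096 and 0.0953). MmugDNA.41293.1.S1_at behaved otherwise: 304 to 517.3 in CV TB and 246.7 to 354.9 in adjacent LE (0.47 ± 0.30, adjusted p = 0.243), and 120.4 to 249.4 in FG TB and 247.5 to 538.2 in adjacent LE, where TB was 1.93-fold lower (-0.95 ± 0.24, adjusted p = 0.00749). This FG call was lost in the methods' t-test too (adjusted p = 0.0804). Summed intensity of 7 immune markers was 241.6 to 541.3 in CV TB and 3509 to 5171 in its adjacent LE, and 346.7 to 865.3 in FG TB and 788.9 to 2869 in its adjacent LE. LYZ and CD68 carried these sums and were the markers called lower in TB, 2 of 4 tested at each site. Over all probe sets, 18% were lower in CV TB and 20.2% in FG TB. PTPRC, the pan-leukocyte marker, had medians of 90.3 in CV TB and 108.9 in its LE, and of 124 in FG TB and 84.3 in its LE. The part of immune cells in the PLCG2 readings was not tested.

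**Figure D2:**
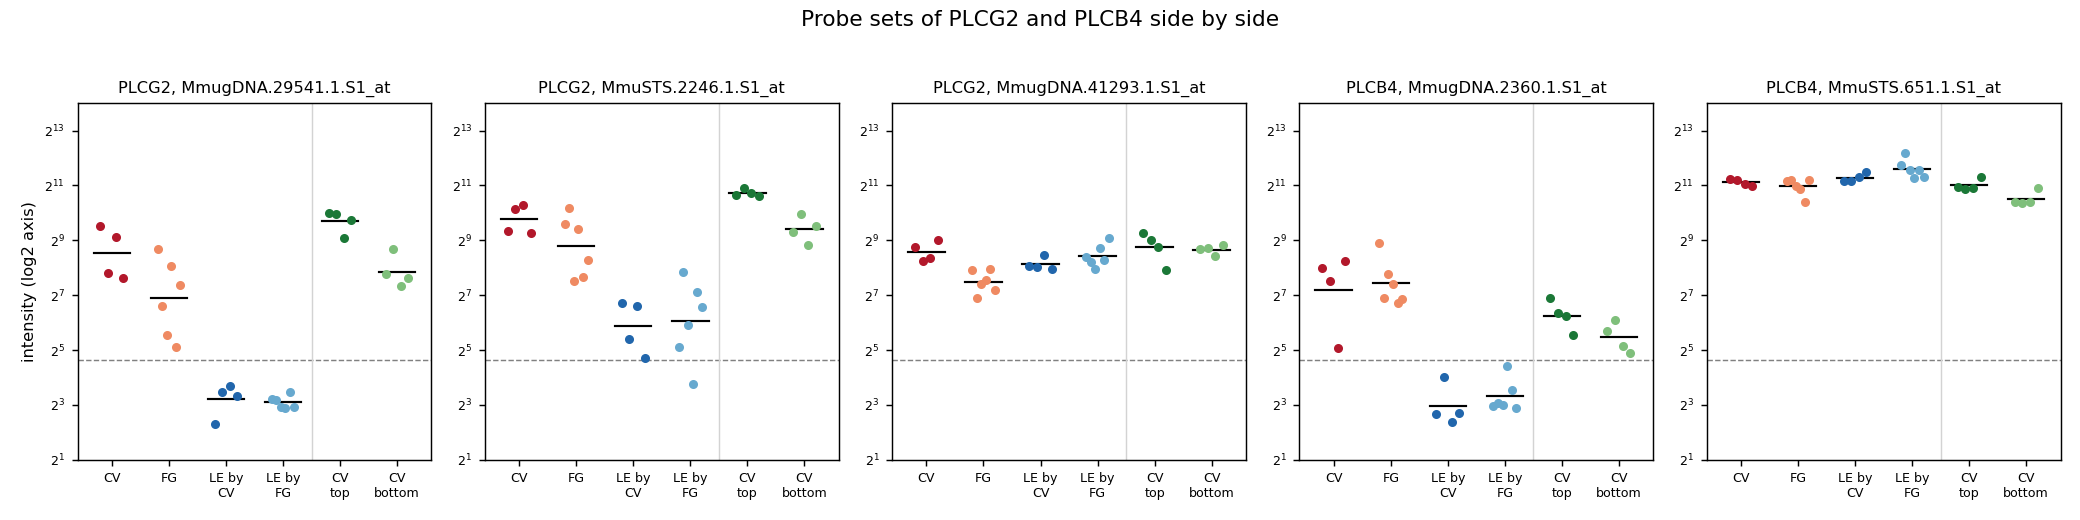
Intensity (log2 axis) of the 3 PLCG2 probe sets and the 2 PLCB4 probe sets in each sample of the 6 groups, with the geometric mean as a black line and 25 as a dashed line. PLCG2 probe sets MmugDNA.29541.1.S1_at and MmuSTS.2246.1.S1_at lie higher in TB than in LE, the latter with overlap in FG (183.4 at the lowest in TB, 229.8 at the highest in LE), and MmugDNA.41293.1.S1_at does not; of the PLCB4 probe sets, the one named PFKFB3 by the array annotation (MmugDNA.2360.1.S1_at) separates them and the other is bright in all groups.

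PLCG1, the gamma isoform downstream of many growth factor receptors, varied more within groups than between them. It read 137.5, 529.8, 92.7 and 225.3 in CV TB and 244.5, 398.4, 257.6 and 96.9 in adjacent LE. FG TB ran from 185.2 to 680.3 and adjacent LE from 50.6 to 706.7, and the LE value of 706.7 came from animal 3. That LE sample also had the highest summed muscle (1769, with 28.27 to 100.3 in the other LE samples), fibroblast (4739) and endothelial (1263) markers of any LE sample. The log2 change was -0.17 with a 95% interval of -1.52 to 1.18 in CV (adjusted p = 0.858) and 0.75 with an interval of -0.36 to 1.85 in FG (adjusted p = 0.26). Those intervals leave room for changes of more than 2-fold either way in CV.

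PLCD4, a calcium-sensitive isoform, was the delta counterpart of PLCB2 in these tissues. It read 3930, 5548, 5442 and 4264 in CV TB and 6.4, 9.2, 66.5 and 10.5 in adjacent LE. FG TB ran from 2681 to 4702 (median 3650) and adjacent LE from 6.4 to 94.9 (median 9.7). Only the LE samples of animal 4 by the CV papillae and animal 6 by the FG papillae rose above 25, and neither came near any TB sample. PLCD4 was at least 149-fold higher in CV TB (8.38 ± 0.68, adjusted p = 8.59e-07) and at least 115-fold higher in FG TB (7.94 ± 0.56, adjusted p = 1.24e-07).

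PLCD1 went the other way. It read 49.5, 63.7, 45.1 and 30.8 in CV TB and 226.4, 92.8, 219.9 and 166.9 in adjacent LE, with no overlap. FG TB ran from 18.3 to 115.6 (median 37.2) and adjacent LE from 76.1 to 347.9 (median 191.5), and TB lay below its own LE in 6 of 6 animals. PLCD1, a delta isoform with known roles in skin and hair keratinocytes, was 3.64-fold lower in CV TB (-1.86 ± 0.53, adjusted p = 0.0136) and 3.86-fold lower in FG TB (-2.02 ± 0.43, adjusted p = 0.00225). Keratinocyte marker sums were lower in TB too (above), and their part in the PLCD1 difference was not tested. The CV call was lost without animal 4 and in the methods' t-test, with adjusted p from 0.00361 to 0.142.

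PLCD3 was bright in every group. Its brighter probe set read 3214, 2835, 2325 and 3079 in CV TB and 4891, 5616, 4853 and 5734 in adjacent LE, without overlap, yet with a log2 change of -0.89 ± 0.44 it was not called (adjusted p = 0.133). In FG TB it ran from 2291 to 4540 and in adjacent LE from 914.9 to 6189 (-0.18 ± 0.36, adjusted p = 0.721). The low LE value of 914.9 came from animal 6, and without that animal the FG difference was -0.67 (adjusted p = 0.0325) and PLCD3 passed in CV as well (adjusted p = 0.0167). Animal 6 gave no CV tissue, so no CV value changed. All groups of the first set share an estimate of the spread in the fit. A dimmer probe set of PLCD3 was 4.01-fold lower in CV TB (-2.0 ± 0.44, adjusted p = 0.00284) and changed by -0.51 ± 0.36 in FG (adjusted p = 0.267). The LE sample of animal 6 also had the lowest summed keratinocyte (58313) and immune (788.9) markers among the LE samples. Not all markers were low there. KRT13 (16848) and KRT4 (14005) lay within the range of the other LE samples, and PTPRC (246.1) was the highest of any LE sample. LYZ (149), CD68 (319.4), CRNN, SPRR3, IVL, TGM3 and TMPRSS11E were the lowest.

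PLCE1, the isoform regulated by small GTPases, stayed between 6.08 and 21 on its brighter probe set and between 3.22 and 7.31 on the other in all 28 samples, so no level or change can be given for it. The remaining PLCD3 probe set (4.03 to 15) was dim throughout as well. The dimmer PLCG1 probe set lay near the limit, at 13 to 37.9, and was called in no comparison in which it was tested.

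**Figure D3:**
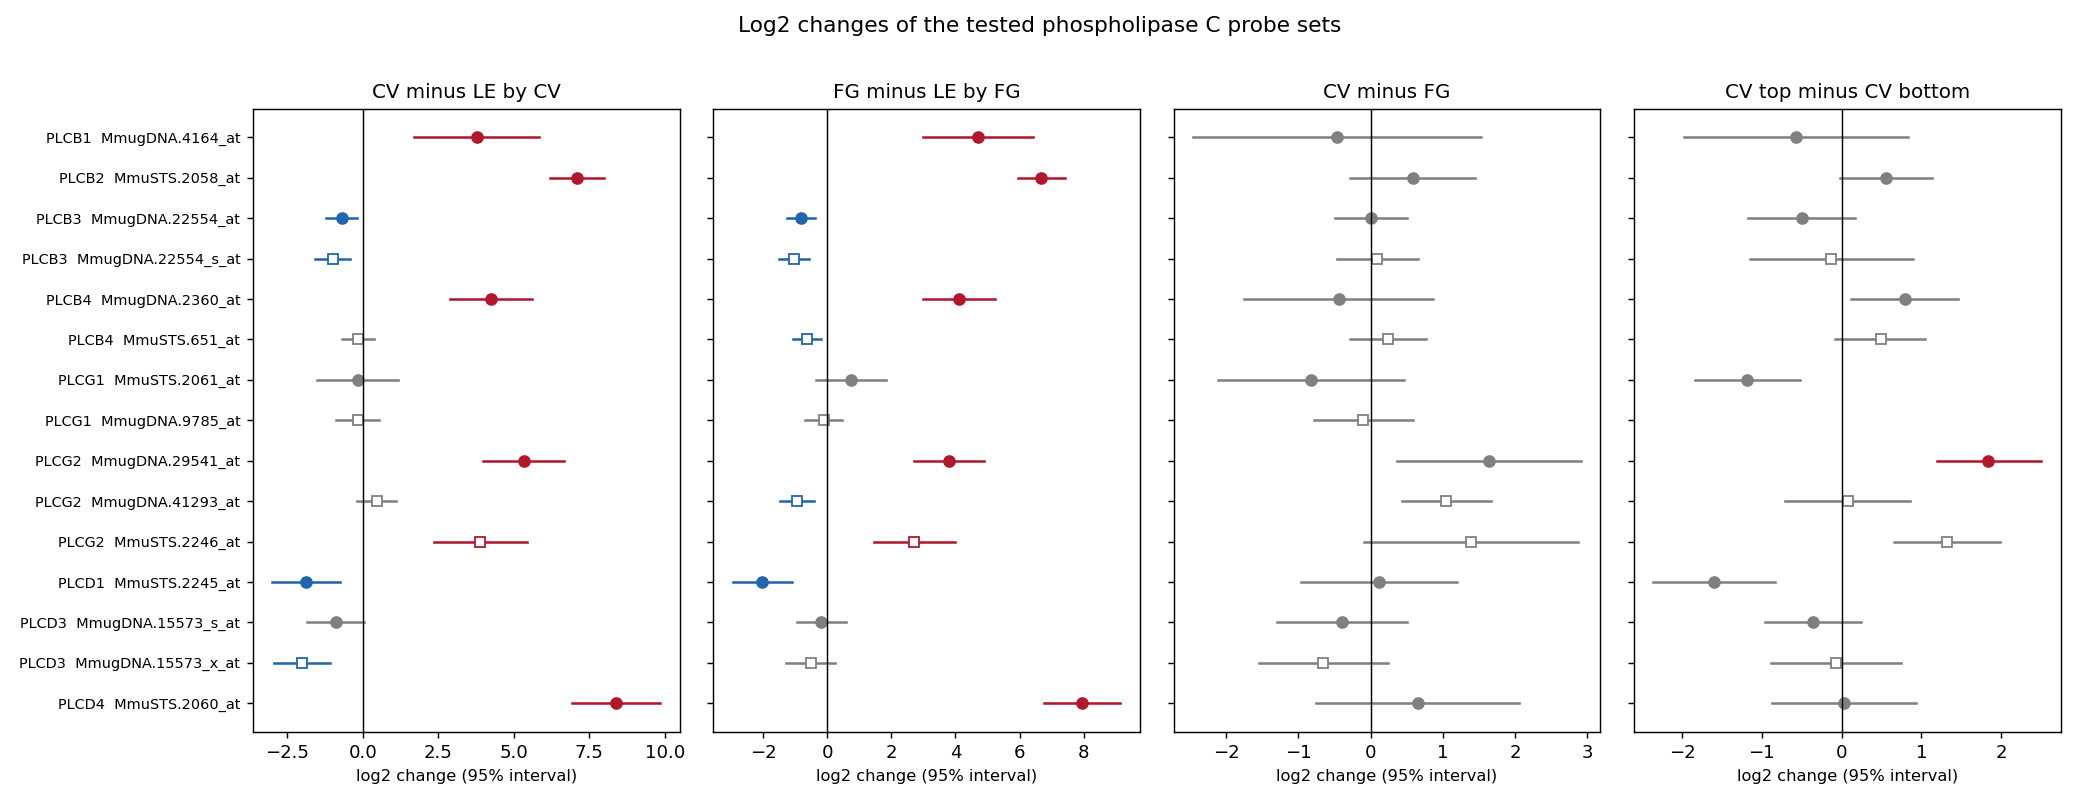
Log2 change with its 95% interval for each tested PLC probe set in 4 comparisons, with filled circles for the representative probe set of a gene and open squares for the others; red is called higher, blue called lower and grey not called in limma. PLCB2 and PLCD4 lie farthest to the right in both TB against LE panels, the panels differ in scale, and only 1 point is coloured in the panels on the right, PLCG2 in top against bottom.

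CV and FG TB were compared with each other to see whether papilla type set the PLC makeup. No PLC gene was called, 0 higher and 0 lower of 9, where 0.378% of all probe sets tested were higher and 0.493% lower in CV TB. Without adjustment, 1 representative probe set lay under 0.05 in limma, that of PLCG2 (adjusted p = 0.271), and the methods' t-test without adjustment called 2 genes higher. PLCB2 was above FG TB in 4 of 4 animals and the groups did not overlap, but the log2 difference of 0.58 had a 95% interval of -0.28 to 1.44 (adjusted p = 0.657). PLCG2 differed by 1.64 with an interval of 0.37 to 2.91 on its listed probe set, by 1.04 with an interval of 0.43 to 1.66 on MmugDNA.41293.1.S1_at (adjusted p = 0.122), and by 1.39 with an interval of -0.09 to 2.87 on MmuSTS.2246.1.S1_at (adjusted p = 0.468). PLCD4 differed by 0.66 with an interval of -0.75 to 2.06 (adjusted p = 0.793), and PLCB3 by 0.01 with an interval of -0.49 to 0.51 (adjusted p = 0.994). Marker sums of other cells differed between these groups: salivary gland markers ran from 116.4 to 2077 in CV TB and 49.85 to 103.4 in FG TB, and type I taste cell markers from 514.5 to 1345 and 51.22 to 199.8. SLC1A3 alone carried the type I difference, with medians of 591.8 in CV TB and 15.91 in FG TB. ENTPD2 had medians of 36.24 and 36.16, and KCNJ1 lay under 25 in every sample of both. The part of other cells in the PLCG2 differences was not tested. The interval was narrowest for PLCB3 and widest for PLCB1 among the representative probe sets, the latter from -2.46 to 1.53.

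No PLC gene was called between the 2 LE sites either, with 0 higher and 0 lower of 9. Over all probe sets 0.97% were higher and 0.294% lower, and no PLC probe set had an unadjusted p under 0.05 in limma. The nearest was the dimmer PLCD3 probe set, at 0.84 with an interval of -0.05 to 1.73 (adjusted p = 0.318). The representative probe sets of PLCB1, PLCB4 and PLCG2 lay under 25 in every LE sample, and that of PLCD4 in most. For these genes the test cannot decide whether the LE sites differ. The difference between the CV and FG effects was tested as an interaction of site and tissue. It called none of the 9 genes, beside 0.271% higher and 0.6% lower over all probe sets, and no representative probe set had an unadjusted p under 0.05. The largest interaction by p was that of PLCG2 on MmugDNA.41293.1.S1_at, at 1.41 ± 0.39 (unadjusted p = 0.00257, adjusted p = 0.0993), and the dimmer PLCD3 probe set gave -1.50 ± 0.56 (adjusted p = 0.225).

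Within CV buds, the top and bottom fractions were compared in the 4 animals of the second set. PLCG2 was the gene called, higher in the top, so the count was 1 higher and 0 lower of 9, beside 1.68% higher and 1.46% lower over the 21167 probe sets tested. It read 1011, 1006, 549.4 and 861.2 in the top fractions of animals 7, 8, 9 and 10 and 219, 409.3, 162 and 199.6 in the bottom fractions. The top was above the bottom in each animal, by 4.62, 2.46, 3.39 and 4.32 times, and the groups did not overlap. The mean difference was 3.59-fold (1.84 ± 0.27, adjusted p = 0.0324). It did not pass when any 1 animal was left out, without the filter on dim probe sets or in the methods' t-test, with adjusted p from 0.0218 to 0.211 over the alternatives.

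The other PLCG2 probe sets split in the fractions as they did against LE. MmuSTS.2246.1.S1_at read 1627, 1896, 1685 and 1579 in the top and 636.4, 998, 457.7 and 735.5 in the bottom, 2.49-fold apart without overlap (1.32 ± 0.27, adjusted p = 0.0583). MmugDNA.41293.1.S1_at read 614.8, 516.9, 433.4 and 242.5 in the top and 413.7, 418.4, 346.9 and 449.3 in the bottom, a log2 difference of 0.08 with an interval of -0.71 to 0.86. Summed immune markers were 823.9, 1721, 798.7 and 615.8 in the top fractions and 492.6, 583.6, 546.1 and 576.5 in the bottom fractions, all of the top above all of the bottom. LYZ set this order, at 325, 1022, 469.3 and 399.5 in the top against 74.34, 130, 64.24 and 201.1 in the bottom. It was the marker called of 4 tested, beside 1.68% higher and 1.46% lower over all probe sets. PTPRC (66.5 to 430.9 and 143.8 to 245.1) and CD68 (63.18 to 167.9 and 42.44 to 253.1) overlapped. Of the 7 immune markers on the array, CD79A and MS4A1, which define B cells, lay under 25 in every fraction. The part of immune cells in the PLCG2 difference was not tested.

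PLCB2 also stood above the bottom in every top fraction, but by little. It read 7693, 7407, 7656 and 8423 in the top and 5677, 5144, 5381 and 5017 in the bottom, and the ratio within animals was 1.36, 1.44, 1.42 and 1.68. The groups did not overlap and the log2 difference of 0.56, with an interval of -0.02 to 1.13, did not pass (adjusted p = 0.257). Beside its mean ratio of 1.47, other type II transduction genes gave 3.11 (GNAT3), 2.89 (TRPM5), 1.98 (GNB3), 1.83 (GNG13) and 1.18 (ITPR3, with 0.431 to 4.91 within animals). The difference between these ratios was not tested. PLCD4 showed no common direction, at 2416, 1295, 1906 and 2743 in the top and 2751, 2237, 2100 and 1173 in the bottom, and its log2 difference was 0.03, with an interval of -0.87 to 0.93 (adjusted p = 0.978).

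PLCD1 and PLCG1 lay below the bottom in every top fraction. PLCD1 read 41.6, 87.2, 74.5 and 50 in the top and 170.5, 140.9, 246.9 and 194 in the bottom, 3.04-fold apart without overlap (-1.60 ± 0.32, adjusted p = 0.0532). PLCG1 read 189.6, 65.1, 127.9 and 97.7 in the top and 345.3, 210, 223 and 251.1 in the bottom, 2.27-fold apart without overlap (-1.18 ± 0.27, adjusted p = 0.0759). Neither passed. Summed fibroblast markers were 390.5 to 520.2 in the top fractions and 3048 to 6158 in the bottom fractions, with 4 of the 5 markers on the array averaging at least 25 in each. Summed keratinocyte (378 to 1225 against 1263 to 6570) and Schwann cell and nerve markers (26.24 to 51.45 against 74.79 to 130.7) were likewise lower in every top fraction than in any bottom fraction. S100B carried the latter sum (17.44 to 41.8 against 65.72 to 121.1) and was not called, and SOX10 lay under 25 in every fraction. Of 4 keratinocyte markers tested, 0 were called, beside 1.68% higher and 1.46% lower over all probe sets. KRT13 did not overlap (117.4 to 421.8 against 909.4 to 1738), but TGM3 did (29.09 to 400.7 and 35.13 to 76.54). The part of any of these cells in the PLCD1 and PLCG1 differences was not tested. PLCB1 differed by -0.57 with an interval of -1.98 to 0.83, PLCB3 by -0.50 with an interval of -1.17 to 0.17 and PLCD3 by -0.36 with an interval of -0.96 to 0.24. The listed PLCB4 probe set was above the bottom in 4 of 4 animals, at 0.79 with an interval of 0.12 to 1.46 (adjusted p = 0.183).

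**Figure D4:**
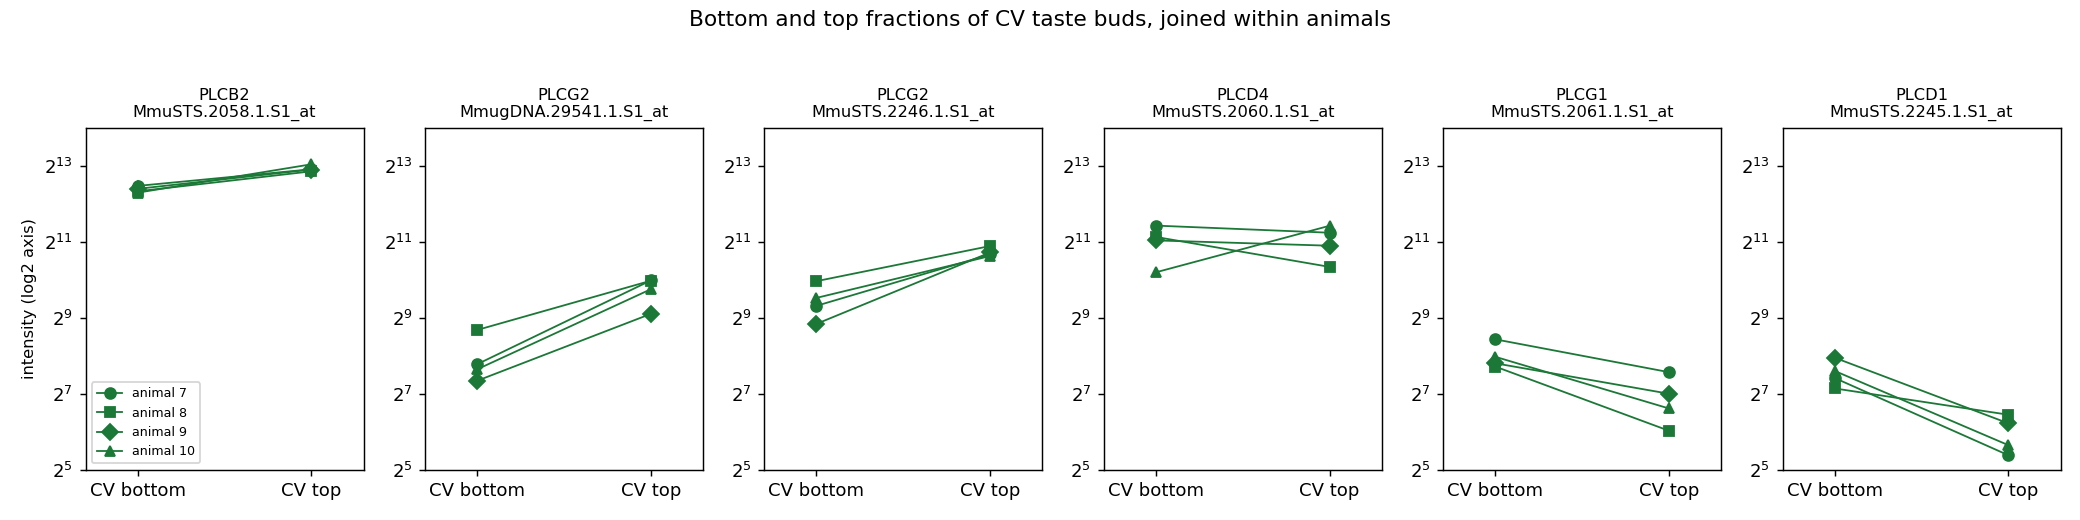
Intensity (log2 axis) in the bottom and top fractions of CV TB, joined by a line within each of animals 7 to 10, for 5 PLC genes, PLCG2 with its 2 probe sets that are higher in TB. Lines rise in all 4 animals for PLCB2 and both PLCG2 probe sets and fall in all 4 for PLCG1 and PLCD1, but only PLCG2 on MmugDNA.29541.1.S1_at passed the test; PLCD4 lines cross.

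Both fractions were also set against the LE adjacent to CV papillae, in which the tissue and the array set cannot be told apart. In the top fraction 5 genes were higher and 3 lower of 9, beside 25.1% higher and 19.3% lower over 27751 probe sets, and in the bottom fraction 5 were higher and 1 lower, beside 23.1% and 19%. The 5 higher genes were PLCB1, PLCB2, PLCB4, PLCG2 and PLCD4 in both. For PLCB4 in the bottom fraction (2.53 ± 0.57, adjusted p = 0.000861) the call was lost with values under 25 raised to 25 (0.83, adjusted p = 0.2), and the array-annotated PLCB4 probe set was lower there (-0.76 ± 0.23, adjusted p = 0.00984). PLCB2 changed by 7.31 ± 0.39 in the top and 6.75 ± 0.39 in the bottom (adjusted p = 1.56e-13 and 1.27e-12), and PLCD4 by 7.12 ± 0.64 and 7.10 ± 0.64 (3.12e-09 and 4.08e-09). PLCD1 was lower than LE in the top (-1.47 ± 0.48, adjusted p = 0.0148) and at 0.14 ± 0.48 in the bottom (adjusted p = 0.841). PLCB3 was lower in both, by -1.73 ± 0.22 and -1.23 ± 0.22. These comparisons share their LE samples with the CV comparison.

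Whole CV buds of the first set lay between the fractions for PLCB2, at 6132 to 7161 beside 7407 to 8423 (top) and 5017 to 5677 (bottom). For PLCD4 the whole buds, at 3930 to 5548, lay above both the top (1295 to 2743) and the bottom (1173 to 2751), and for PLCB3 likewise, at 1101 to 1698 whole against 468.5 to 772.1 and 823.7 to 1031. Animals, array set and capture differ together there and cannot be told apart.

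Over the 28 samples, the pattern of PLCB2 was most like those of CXCL14 (Pearson r = 0.989), SCG5 (0.989), GNG13 (0.988), APH1B (0.986) and KCNE3 (0.986), on log2 values raised to the limit of 25, with PLCD4 at 0.979. PLCD4 was most like ESPN (0.987), SCG5 (0.984), SMARCA1 (0.983), ABI2 (0.981) and SLITRK6 (0.980). PLCG2 was most like CMTM2 (0.923), BMX (0.920), MGC45438 (0.915), AGR2 (0.914) and THBS4 (0.912), and less like PLCB2 (0.851) and PLCD4 (0.794). The array annotation names the CXCL14 probe set TPM2 and the SMARCA1 probe set RTN4R. These points share 10 animals and fall into TB and LE, so the coefficients mostly describe that separation. The other PLC genes ranged by less than 4 log2 units between group means and were not ranked.

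The genes around PLC were read from lists of its relatives, its inputs and the fate of its products, again with the probe set of the study's table where one was listed, which favors higher signal in TB. Over all probe sets tested, 17.3% were higher and 18% lower in CV TB, and 21.1% and 20.2% in FG TB. Of 3 tested relatives, PLCH1, a neuronal eta isoform, was higher in CV TB (2.94 ± 0.46) and FG TB (2.44 ± 0.37), and PLCH2 was lower in both (-0.81 ± 0.29 and -1.0 ± 0.24). Of 10 G protein genes upstream of the beta isoforms, 6 were higher and 1 lower in CV TB and 6 higher and 2 lower in FG TB. The taste G protein was the clearest of them, with GNAT3 at 8.65 ± 0.28 in CV and 9.07 ± 0.23 in FG, GNG13 at 7.49 ± 0.25 and 7.27 ± 0.20, and GNB3 at 6.99 ± 0.29 and 6.55 ± 0.24. The probe set listed as GNB5 rose by 5.60 ± 0.75 and 4.01 ± 0.61 and is named DNMT1 on the array. GNA14, a G alpha q class subunit picked here after its values were seen, was higher in CV TB (2.96 ± 0.38). It was also higher in CV than in FG TB (2.12 ± 0.36, adjusted p = 0.0122) and in the top than in the bottom (2.26 ± 0.37, adjusted p = 0.0382). It was the only gene of that list called in either of these last comparisons, of 10 and 9 tested. Over all probe sets, 0.378% were higher and 0.493% lower in CV than in FG TB, and 1.68% higher and 1.46% lower in the top.

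Of 12 tyrosine kinase and adaptor genes upstream of the gamma isoforms, 6 were higher and 2 lower in CV TB (17.3% and 18% over all probe sets). In FG TB 6 were higher and 1 lower (21.1% and 20.2%). None was called between top and bottom, beside 1.68% higher and 1.46% lower over all probe sets. The receptor KIT was higher (5.08 ± 0.64 and 6.14 ± 0.52), as was the kinase FYN (3.21 ± 0.84 and 3.60 ± 0.69). BLNK, the adaptor that brings PLC gamma to the B cell receptor, was lower (-5.22 ± 0.65 and -7.55 ± 0.53). The receptor ERBB4 was higher in CV TB (6.05 ± 0.58) and at 0.55 ± 0.48 in FG TB (adjusted p = 0.372), and this difference between sites passed as an interaction (5.50 ± 0.75, adjusted p = 0.00447).

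Of 12 genes that supply PIP2, 2 were higher and 1 lower in CV TB (17.3% and 18% over all probe sets). In FG TB 4 were higher and 1 lower (21.1% and 20.2%). The CV count of higher genes was near the share over all probe sets. PITPNC1, a phosphatidylinositol transfer protein, rose by 7.05 ± 0.48 and 6.93 ± 0.39, and the PIP2-making kinase PIP5K1B by 4.41 ± 0.59 and 4.53 ± 0.48. PIP5K1B was also higher in the top than in the bottom (1.86 ± 0.25, adjusted p = 0.029). CDIPT, which makes phosphatidylinositol, was lower (-1.92 ± 0.26 and -0.99 ± 0.21), and CDS2 passed in FG TB (3.37 ± 0.81).

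Of 10 genes for IP3 receptors and calcium handling, 3 were higher and 2 lower in CV TB (17.3% and 18% over all probe sets) and 4 higher and 1 lower in FG TB (21.1% and 20.2%). The IP3 receptor ITPR3 was higher in both (1.52 ± 0.41 and 3.58 ± 0.33) and lower in CV than in FG TB (-2.22 ± 0.39, adjusted p = 0.0151). The calcium pump ATP2A3 (4.04 ± 0.77 and 6.39 ± 0.63) and TRPM5, the calcium-gated cation channel of type II cells (3.26 ± 0.42 and 2.89 ± 0.35), were higher, and TRPM5 was higher in the top than in the bottom (1.53 ± 0.25, adjusted p = 0.0382). The calcium sensor STIM2 was higher in FG TB (3.10 ± 0.52).

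Of 13 genes for inositol phosphate breakdown, 2 were higher and 1 lower in CV TB (17.3% and 18% over all probe sets), so that neither count stood above the background, and 4 were higher and 1 lower in FG TB (21.1% and 20.2%). ITPKB, an IP3 kinase, was higher in both (1.54 ± 0.40 and 2.69 ± 0.32) and in the top fraction (1.63 ± 0.27, adjusted p = 0.0382), and the phosphatase INPP4A was higher in both (3.67 ± 0.89 and 3.24 ± 0.73). INPP5B (2.15 ± 0.33) and SYNJ2 (2.34 ± 0.67) passed in FG TB.

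Of 8 DAG kinase and lipase genes, 4 were higher and 0 lower in CV TB (17.3% and 18% over all probe sets). In FG TB 4 were higher and 1 lower (21.1% and 20.2%). None was called between top and bottom (1.68% higher and 1.46% lower over all probe sets). The kinases DGKB (3.80 ± 0.68 and 3.89 ± 0.56), DGKE (4.20 ± 0.90 and 3.68 ± 0.74) and DGKH (4.71 ± 0.82 and 4.19 ± 0.67) were higher at both sites, and the probe set listed as DGKI (2.45 ± 0.65 in FG TB) is named CLCA1 on the array. Of 12 genes listed as DAG effectors, 4 were higher and 4 lower at each site, beside the same shares over all probe sets. PRKD3 was higher (2.43 ± 0.61 and 3.65 ± 0.50), and the exchange factor RASGRP1 was lower (-4.67 ± 0.77 and -2.16 ± 0.63). MCTP1 was higher as well (8.68 ± 0.49 and 8.22 ± 0.40). It was also the 1 gene of 9 tested that was called in the top (1.89 ± 0.35, adjusted p = 0.0489), beside 1.68% higher over all probe sets. MCTP1 is a calcium-binding C2 domain protein, and whether it answers to DAG was not tested, so its calls are not read as DAG signaling. The probe set listed as PRKCE was higher (4.03 ± 0.66 and 2.91 ± 0.54) and is named MUCL3 on the array.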

How the data were processed

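The authors background corrected and quantile normalized all 28 arrays together with GC-RMA in GeneSpring GX; the deposited values are linear intensities, and the sources used here name no software version. Arrays had median intensities of 13.57 to 16.75, and 37.3% to 40.8% of probe sets reached 25. The number of arrays limits the precision. Intensities were taken to log2 and fitted with limma 3.58.1 in R 4.3.3, after keeping probe sets that reached 25 in 4 or more samples of the fit, with Benjamini-Hochberg adjustment over all of them and calls at 0.05. The first set (20 samples, 26176 probe sets) and the second (8 samples, 21167) each had animal as a fixed block, and fractions against LE used all 28 samples (27751 probe sets) with animal as a random block (consensus correlation 0.039). Pairing comes from the animal numbers in the labels; deviations of samples of the same animal correlated at 0.05 to 0.12 on average, and of different animals at -0.04 to -0.01. Folds are ratios of geometric means with values under 25 raised to 25, written "at least" if raising touched the dimmer side and its arithmetic means gave a fold as large or larger.

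The representative probe set of a gene was that in the study's table (1997 entries used, for names only), otherwise the brightest by its mean on the log2 scale over the 28 samples. The array annotation named 1 gene for 24956 probe sets and several for 361, and did not list 26707. From each pathway list up to 4 genes were named, those with the largest called change against LE, and for PLC genes ranging by at least 4 log2 units the 5 most similar genes. The members and lists were chosen with earlier results of these data known. The table's own fold changes and p-values were not used. In simulated data, limma found 29 of 50 probe sets changed 8-fold and 2 of 50 changed 2-fold in CV TB against LE, 33 of 50 and 2 of 50 in CV against FG TB, and 29 of 50 and 0 of 50 in top against bottom, among 24779, 24779 and 20498 probe sets. Alternatives were no filter, raised low values, array centring, no animal block, leaving out each animal, the brightest probe set, pooled LE and the methods' t-test (paired, on intensity). No sequence was used here.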

Additional observations from a re-analysis of the deposited data

Results flagged for a closer look

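Of 90 groups of PLC values examined, 4 held a sample far from the rest of its group, and chance gives about 1 in 20 groups. The array-annotated PLCB4 probe set was highest in animal 10 in both fractions, at 2538 in the top, where the next values were 1957 and below, and at 1919 in the bottom, where the next were 1360 and below. In LE adjacent to FG papillae, animal 6 was lowest on both PLCD3 probe sets, at 914.9 and 97.92. Both carry the same gene name, so they are not independent of each other.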

How the results depend on the processing

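Of 1549 values recomputed under the alternatives for 119 tests, 1478 kept their side of the threshold, 76 of them with a turned sign but no call in either setting, 47 lost a call, 24 gained one and 0 reversed a call. Higher genes in CV TB against LE numbered 5 and became 2 in the methods' t-test, 2 without adjustment and 3 with the brightest probe sets, and in FG TB 5 became 2 and 3 in the adjusted t-test and with the brightest probe sets. Lower genes in CV TB numbered 2 and became 1 with arrays centred on their medians and 0 in the methods' t-test, and lay between 0 and 3 when an animal was left out; in FG TB 2 became 4 with the brightest probe sets. The methods' t-test without adjustment called 2 genes higher in CV than in FG TB. Between top and bottom, 1 higher gene became 0 without the filter, in the methods' t-test and with the brightest probe sets, 0 to 0 when an animal was left out, and 2 in the unadjusted t-test; 0 lower genes became 3 there and 1 (PLCD1) without the replicate block (paired by animal) or with centring on the tested probe sets, an alternative chosen after seeing the data. Without the block, PLCG2 on MmuSTS.2246.1.S1_at passed too (1.32, adjusted p = 0.0299), and the block changed no other call. Against LE, lower genes in the top lay between 1 (without animal 7) and 3, and in the bottom between 1 and 2 (without animal 6). The causes were not tested. In the simulated data, 2-fold changes were mostly not called. Far fewer probe sets were changed there than were called in the TB against LE fits. The simulation thus sets no limit for those fits, where PLCB3 passed at 1.63-fold lower in CV TB.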
